A study of Mus musculus with 4 samples.

Results

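Cyp1a2, Cyp2e1 and Cyp2f2 are cytochrome P450 enzymes that mouse hepatocytes make without an inducing drug, Cyp1a2 and Cyp2e1 in the pericentral and Cyp2f2 in the periportal zone of the liver lobule. They were taken as the rows of the expression table whose probe set the platform annotation assigns to these symbols, which gave 1 probe set for each of the 3 genes, out of 8251 genes named on the array and 5510 bright enough to be tested. Liver RNA was compared on Affymetrix MG_U74Av2 arrays, which read each transcript with a set of short probes, between 2 arrays of hepatic reductase null mice (null replicates 7 and 8) and 2 arrays of control mice (control replicates 7 and 8, labelled WT). According to the labels each experiment pooled RNA from 3 animals of a genotype, yet the control titles speak of a mouse, and it is not settled which of these an array measured. Strain, sex and age are not given in the labels. In the hepatic reductase null line as it is known, a Cre recombinase under the albumin promoter deletes NADPH-cytochrome P450 oxidoreductase (Por) in hepatocytes, and other liver cells keep the gene. The annotation names no probe set for Por, so the genotype labels were not checked against it.

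P450 enzymes sit in the endoplasmic reticulum and oxidise drugs, pollutants and endogenous lipids with electrons that Por passes to them, so that a hepatocyte without Por makes P450 proteins that can hardly work. Along the lobule, hepatocytes near the central vein carry Cyp1a2, which oxidises caffeine and aromatic amines and is a classical target of the aryl hydrocarbon receptor, and Cyp2e1, which oxidises ethanol, acetone and paracetamol. Hepatocytes near the portal vein carry Cyp2f2, known in mouse for turning naphthalene into a reactive epoxide, in lung club cells as well as in liver. Wnt and beta-catenin signalling from the central vein maintains the pericentral programme and keeps the periportal one down.

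The proximal promoters are shown because the members belong to different zones and differ in which known regulatory motifs they hold here. Each line gives the 250 bases before the gene's RefSeq start (GRCm38.p6), 5′ to 3′ on the gene's strand. Capitals mark a TATA box (TATAAAA) and a TCF/LEF core (CTTTGA), each searched on both strands.
Cyp1a2 (chr9:57683656-57683905, minus strand): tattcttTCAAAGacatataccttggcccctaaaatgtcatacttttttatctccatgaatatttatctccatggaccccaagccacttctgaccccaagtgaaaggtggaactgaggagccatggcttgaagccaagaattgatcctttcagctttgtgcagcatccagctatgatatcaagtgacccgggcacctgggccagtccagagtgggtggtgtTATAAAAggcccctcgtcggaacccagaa
Cyp2e1 (chr7:140763569-140763818, plus strand): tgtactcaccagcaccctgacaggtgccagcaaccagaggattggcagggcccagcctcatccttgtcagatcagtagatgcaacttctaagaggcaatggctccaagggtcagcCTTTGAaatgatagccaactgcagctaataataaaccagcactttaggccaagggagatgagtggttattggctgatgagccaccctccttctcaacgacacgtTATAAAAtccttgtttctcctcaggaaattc
Cyp2f2 (chr7:27119705-27119954, plus strand): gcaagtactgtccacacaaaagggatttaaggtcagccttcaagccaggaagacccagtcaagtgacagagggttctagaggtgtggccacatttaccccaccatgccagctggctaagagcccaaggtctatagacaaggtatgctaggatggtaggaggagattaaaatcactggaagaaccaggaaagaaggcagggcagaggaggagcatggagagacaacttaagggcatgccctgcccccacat
The promoters of both pericentral genes held TATAAAA on the gene's strand, at -29 to -23 before the start of Cyp1a2 and at -31 to -25 before that of Cyp2e1, whereas these letters were not in the Cyp2f2 window on either strand. Of 27025 promoters of this length, 3.28% held it on the gene's strand and 5.3% on either. The TCF/LEF core, which beta-catenin's DNA-binding partners recognise, occurred once in each pericentral promoter, on the opposite strand at -243 to -238 in Cyp1a2 and on the gene's strand at -135 to -130 in Cyp2e1, and was not in the Cyp2f2 window. It occurred in 14% of all promoters. The aryl hydrocarbon receptor core GCGTG, found on either strand in 28.2% of promoters, was in none of the 3 windows. No marked motif overlapped another. These are matches of letters and were not tested for binding.

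The periportal Cyp2f2 was lower in null liver, the pericentral Cyp1a2 was slightly higher, and the pericentral Cyp2e1 differed least, and none of the 3 passed the test across all probe sets. Cyp2f2 had signals of 2231.8 and 2113.1 on the null arrays, against 3027.9 and 3020.7 on the control arrays. The null pair lay well below a control pair that was nearly level, and the groups did not overlap. The signal averaged 2172 ± 83.9 in null liver and 3024 ± 5.09 in control liver (SD, n = 2 each), which is 28.2% lower in null liver. On the log2 scale the difference, null minus control, was -0.48 ± 0.07 (SE, 95% interval -0.65 to -0.30), with an adjusted p of 0.0667 in limma with Benjamini-Hochberg adjustment over 7241 probe sets, against a threshold of 0.05. Quantile normalisation of the arrays gave -0.51 with an adjusted p of 0.0432, which is past the threshold, and over the other 11 settings tried the adjusted p missed it. Of the 5510 genes, 7.89% had a more negative change than Cyp2f2 and 0.599% a smaller unadjusted p.

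Cyp1a2 had signals of 4360.1 and 4034.6 on the null arrays, against 3099.7 and 3855.3 on the control arrays. The groups did not overlap, but null replicate 8 and control replicate 8 lay close together, and the control arrays differed from each other by 0.31 on the log2 scale. The signal averaged 4197 ± 230.2 in null liver and 3478 ± 534.3 in control liver (SD, n = 2 each). The log2 change was 0.28 ± 0.11 (SE, 95% interval 0.01 to 0.54), 1.21-fold, with an adjusted p of 0.365 in limma. Its size rested on the control arrays, with 0.12 without control replicate 7 and 0.44 without control replicate 8.

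Cyp2e1 had signals of 6777.1 and 6825.4 on the null arrays, against 7493.1 and 7116.8 on the control arrays. Both null arrays lay below both control arrays, by a gap smaller than that between the control arrays themselves. The signal averaged 6801 ± 34.2 in null liver and 7305 ± 266.1 in control liver (SD, n = 2 each), a log2 change of -0.10 ± 0.06 (SE, adjusted p of 0.532 in limma). Its 95% interval ran from 0.844-fold to 1.03-fold null over control, so the data do not settle the direction. Without control replicate 7 the log2 change was -0.065, and without control replicate 8 it was -0.14.

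**Figure D1:**
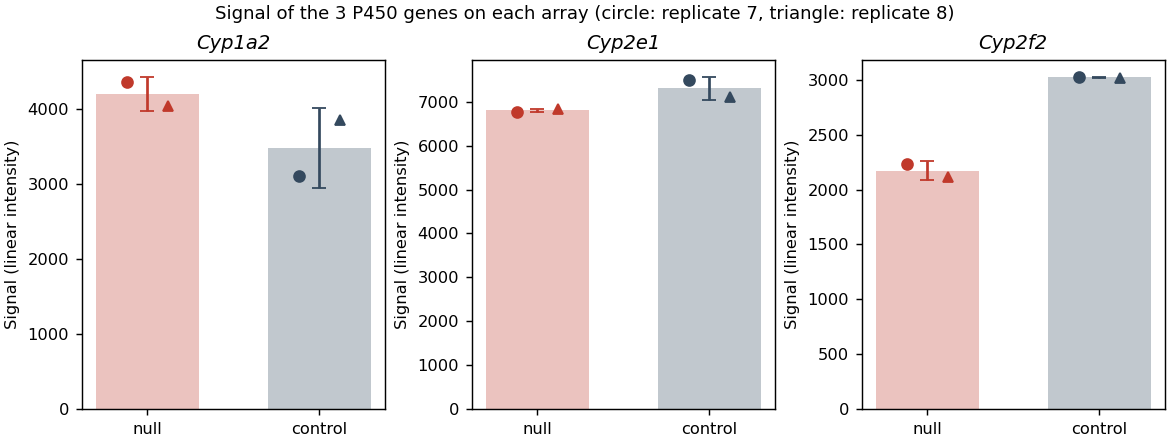
Linear signal of Cyp1a2, Cyp2e1 and Cyp2f2 on each array, with bars for the mean and lines for the SD of 2 arrays per genotype. For Cyp2f2 the null arrays, at 2231.8 and 2113.1, lie below the control arrays, at 3027.9 and 3020.7, while the genotypes lie closer together for Cyp1a2 and Cyp2e1.

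Non-overlapping arrays were common and so carry little by themselves. Over the 5510 tested genes, 44.9% had groups that did not overlap, made up of 20.9% with both null arrays above both control arrays and 24% with both below. The share of genes past the threshold was 0.399%, with 0.309% higher and 0.0907% lower, and of all probe sets tested 0.387% passed. An unadjusted p under 0.05 was found for 13.4% of the genes, with 6.46% higher and 6.93% lower. The counts at that level for each of the 8 gene lists are set against these shares. In limma 0 probe sets passed without the intensity trend in the variance prior (747 had an unadjusted p under 0.05), without the filter on dim probe sets (1208) or with the floor at the 50th percentile (955), so each call given below ended under those settings. Signals of the 3 genes were at least 297.6 times the floor of 7.1 set on dim signals, so that floor did not touch them. Lower RNA per hepatocyte and fewer hepatocytes of a zone cannot be told apart in whole liver.

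**Figure D2:**
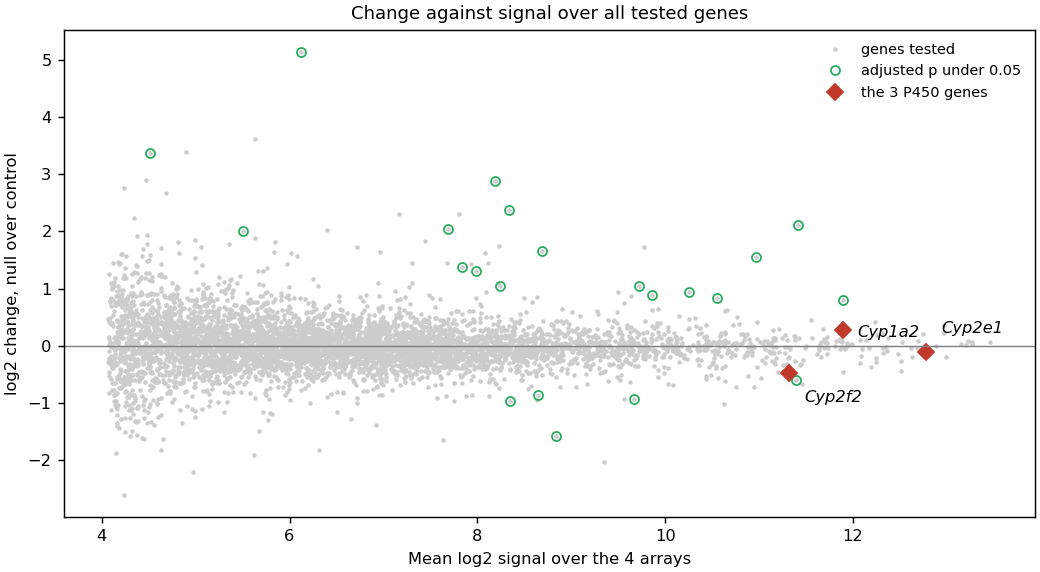
Log2 change, null over control, against mean log2 signal over the 4 arrays for the 5510 tested genes, with genes past the adjusted p of 0.05 circled. Cyp2f2 at -0.48 lies below 0, Cyp1a2 at 0.28 above it and Cyp2e1 at -0.10 near it.

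Ratios between the members were taken within each array, where a common scaling of that array cancels. Relative to the control mean, the log2 ratio of Cyp2e1 to Cyp2f2 was 0.33 and 0.42 on the null arrays, against 0.04 and -0.04 on the control arrays. The ratio stood 0.38 higher in null liver (1.30-fold), with a pooled SD of 0.06 within genotypes. The log2 ratio of Cyp1a2 to Cyp2f2 was 0.77 and 0.74 on the null arrays, against -0.16 and 0.16 on the control arrays. It stood 0.76 higher in null liver (1.69-fold), with a pooled SD of 0.16. Between the pericentral members, the ratio of Cyp1a2 to Cyp2e1 was 0.38 higher in null liver with a pooled SD of 0.20, at 0.44 and 0.32 on the null arrays, against -0.19 and 0.19 on the control arrays. Each of these changes in ratio is the difference between the log2 changes of its 2 members given above, and so adds no separate evidence. No p is given for these ratios. With 2 arrays a genotype, the smallest two-sided p that an exact permutation test allows is 0.333.

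**Figure D3:**
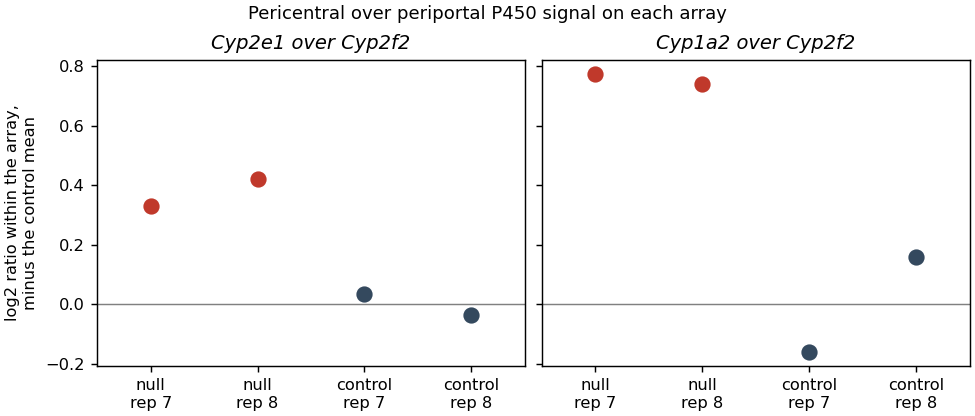
Log2 ratio of a pericentral P450 to the periportal Cyp2f2 within each array, with the control mean set to 0. For Cyp2e1 the null arrays lie at 0.33 and 0.42 and the control arrays at 0.04 and -0.04, and for Cyp1a2 the null arrays lie at 0.77 and 0.74 and the control arrays at -0.16 and 0.16.

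Among the other periportal genes, Hal, the enzyme that begins histidine breakdown, fell, and Pigr lay lower by about as much as Cyp2f2. Of 30 listed genes other than Cyp2f2, 22 were tested, of which 0 rose, 1 fell and 21 did not pass, with 8 positive and 14 negative changes, and 11 had both null arrays below both control arrays (24% over all genes) and 3 both above (20.9%). Their median change was -0.08, beside -0.01 over all tested genes. At an unadjusted p under 0.05 in limma, 2 were higher and 5 lower, beside 6.46% and 6.93% over all genes. Hal had signals of 308.6 and 227.7 on the null arrays, against 774.6 and 806.2 on the control arrays, and fell by 1.58 ± 0.16 on the log2 scale (SE, adjusted p of 0.021). The Hal call ended without control replicate 7 (adjusted p of 0.109) or control replicate 8 (0.0968). Pigr, the receptor that carries immunoglobulin A into bile, had signals of 3360.8 and 3120.3 on the null arrays, against 4430.7 and 4515.2 on the control arrays, a log2 change of -0.47 ± 0.07 (adjusted p of 0.0652, and 0.0325 with quantile normalisation). The protease Ctsc was at -0.64 ± 0.15, the urate-degrading Uox at -0.34 ± 0.08 and the urea cycle enzyme Otc at -0.33 ± 0.09, while Cps1, which feeds that cycle, was at -0.04 ± 0.06 (log2, SE). Apoa4, an apolipoprotein, went the other way at 1.73 ± 0.25 (adjusted p of 0.0538), and passed with quantile normalisation (adjusted p of 0.0432) and without control replicate 7 (2.13, adjusted p of 0.0145). The periportal median was -0.20 without null replicate 7 and -0.036 without control replicate 8.

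Among the other pericentral genes, Gstm3, a glutathione transferase, and Oat, which converts ornithine, rose. Of 33 listed genes other than Cyp1a2 and Cyp2e1, 23 were tested, of which 2 rose, 0 fell and 21 did not pass, with 16 positive and 7 negative changes, and 11 had both null arrays above both control arrays (20.9% over all genes) and 3 both below (24%). Their median change was 0.16. At an unadjusted p under 0.05 in limma, 7 were higher and 0 lower, beside 6.46% and 6.93% over all genes. Gstm3 had signals of 4859.7 and 6620.7 on the null arrays, against 1321.9 and 1303.7 on the control arrays, a log2 change of 2.11 ± 0.14 (SE, adjusted p of 0.00437) on a probe set of a kind that can also bind related transferases. Another probe set of Gstm3 was at 3.53. Oat had signals of 1596.8 and 1782.4 on the null arrays, against 804.1 and 968.9 on the control arrays, a log2 change of 0.93 ± 0.12 (adjusted p of 0.0373). The Oat call ended without each array in turn, with adjusted p between 0.0818 and 0.214. The list also holds genes known to respond to drugs, such as Cyp2c29 at 1.64 ± 0.28 (adjusted p of 0.0803), Gstm2 at 1.74 ± 0.30 and Gstm1 at 0.37 ± 0.06, and other probe sets of Gstm2 and Gstm1 were at 0.37 and -0.11. Cyp2c29 passed without control replicate 8 (2.07, adjusted p of 0.0371) and Gstm2 without null replicate 7 (2.25, adjusted p of 0.0238). Gstm1 passed with quantile normalisation (adjusted p of 0.0438). Aldh1a1, a retinal dehydrogenase, was at 0.42 ± 0.08. Glul, the glutamine synthetase of the hepatocytes that ring the central vein, was at -0.13 ± 0.18 with overlapping arrays and 0.15 on another probe set, and its sign turned without null replicate 7 (0.059) or control replicate 7 (0.0075). Axin2, a feedback target of beta-catenin, was dim, at 27.8 and 30.2 on the null arrays, against 27.8 and 25.2 on the control arrays. Rgn, a calcium-binding lactonase, was at -0.13 ± 0.07.

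**Figure D4:**
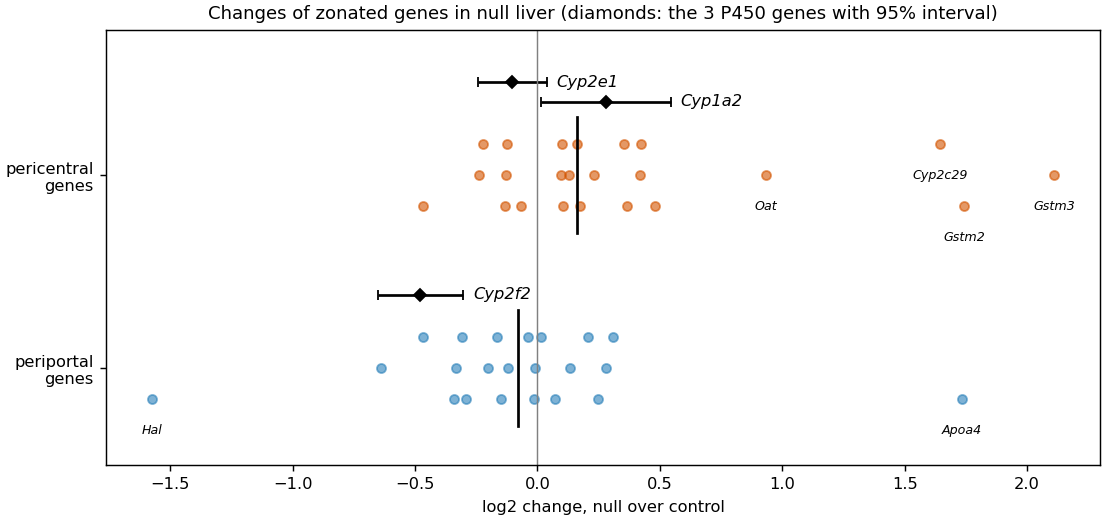
Log2 change, null over control, of the tested genes of the pericentral and periportal lists (dots, with a bar at each list's median of 0.16 and -0.08), and of the 3 P450 genes as diamonds with 95% intervals. Cyp2f2 lies on the negative side with 14 of the periportal genes, short of Hal at -1.58, while 8 lie on the positive side, up to Apoa4 at 1.73. Cyp1a2 and Cyp2e1 lie within the range of either list.

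Like Cyp1a2, the other tested genes of the aryl hydrocarbon receptor did not pass. Of 16 listed genes other than Cyp1a2, 6 were tested, and 0 passed in limma, with 1 at an unadjusted p under 0.05 (13.4% over all genes). Cyp1a1, its close relative and the most responsive target of the receptor, had signals of 9.2 and 12.6 on the null arrays, against 13.7 and 2 on the control arrays, which is close to the floor and too dim to be tested. The receptor itself, Ahr, had signals of 95.2 and 115.6 on the null arrays, against 66.5 and 85.1 on the control arrays, a log2 change of 0.48 ± 0.21 (SE, adjusted p of 0.411). Its partner Arnt was at 0.41 ± 0.27 and the quinone reductase Nqo1 at 0.84 ± 0.34 on a dim probe set, with no passing change among them. Gsta2, a glutathione transferase, was at 0.09 ± 0.20, and its sign turned without null replicate 8 (-0.16) or control replicate 7 (-0.044).

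Like Cyp2e1, the other tested genes listed for ethanol and acetone oxidation did not pass, apart from Aldh3a2 under 2 other settings. These were quantile normalisation and the replicate number as a block (adjusted p of 0.0371 in limma). Of 15 listed genes of ethanol and acetone oxidation other than Cyp2e1, 11 were tested and 0 passed in limma, with 5 at an unadjusted p under 0.05 (4 higher and 1 lower, beside 6.46% and 6.93% over all genes), and the median change was -0.02. Adh1, the main hepatic alcohol dehydrogenase, had signals of 3900.6 and 3687.8 on the null arrays, against 4004 and 3911 on the control arrays, a log2 change of -0.06 ± 0.07. Aldh3a2, which oxidises fatty aldehydes, had signals of 1011.7 and 985.7 on the null arrays, against 461.8 and 588.4 on the control arrays, a log2 change of 0.94 ± 0.13 (adjusted p of 0.0551, and 0.0442 with quantile normalisation). The aldehyde reductase Akr1a1 was at 0.27 ± 0.08. Ephx1, counted among the 4 higher genes of this list although it is an epoxide hydrolase, was at 0.38 ± 0.09.

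Genes known for activating or clearing lung toxicants, as Cyp2f2 does, lay on both sides. Of 9 listed genes other than Cyp2f2, 6 were tested, and 0 passed in limma, with 5 at an unadjusted p under 0.05 (2 higher and 3 lower, beside 6.46% and 6.93% over all genes). The higher ones were Ephx1 and Gstm1, whose values are given with the other lists. Gclc, which limits glutathione synthesis, was at -0.51 ± 0.11 and Gstp1, a glutathione transferase, at -0.19 ± 0.06 (log2, SE).

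None of the tested genes listed as hepatic regulators of the members passed, and they lay on both sides. Whether each acts on the 3 genes was not tested. Of 27 listed regulators, 23 were tested and 0 passed in limma, with 9 positive and 14 negative changes and a median of -0.22, beside -0.01 over all genes. At an unadjusted p under 0.05 in limma, 0 were higher and 3 lower, beside 6.46% and 6.93% over all genes. Both null arrays lay below both control arrays for 9 (24% over all genes) and above them for 3 (20.9%). The highest changes were those of Ahr and Arnt, given above. Cebpa, a hepatocyte differentiation factor, had signals of 2538.3 and 2473.7 on the null arrays, against 3178.9 and 3065.3 on the control arrays, a log2 change of -0.32 ± 0.07 (SE, adjusted p of 0.141). Tcf7l1, a beta-catenin partner, was at -0.85 ± 0.20, with another probe set at -0.14. The nuclear factor I genes Nfix and Nfib were at -0.52 ± 0.14 and -0.35 ± 0.15 and beta-catenin itself, Ctnnb1, at -0.16 ± 0.13. The drug sensor Nr1i3 was at -0.22 ± 0.11, with other probe sets at 0.08 and -0.18.

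The other xenobiotic P450s lay on both sides, with 9 positive and 5 negative changes. Of 37 listed, 14 were tested, of which 2 rose (Cyp2b10 and Cyp3a11, both drug-inducible), 1 fell (Cyp2d26) and 11 did not pass. Over all genes 0.309% rose and 0.0907% fell. At an unadjusted p under 0.05 in limma, 5 were higher and 3 lower, beside 6.46% and 6.93% over all genes. Changes ran from -0.66 to 5.14, and some lay between those of the members, such as Cyp2a12 at 0.07 and Cyp2d10 at -0.28. Cyp3a11 had signals of 4795.9 and 5293.3 on the null arrays, against 2789.5 and 2973.9 on the control arrays, a log2 change of 0.81 ± 0.08 (SE, adjusted p of 0.021). Cyp2d26 had signals of 2228.1 and 2131.1 on the null arrays, against 3443.7 and 3202.3 on the control arrays, and fell by 0.61 ± 0.08 on the log2 scale (adjusted p of 0.0373). Cyp2b10 had signals of 265.8 and 638.3 on the null arrays, against 3.1 and 19.3 on the control arrays, so that its change of 5.14 ± 0.55 (adjusted p of 0.0253) depends on the floor, and with the floor at the 10th percentile it did not pass (5.73, adjusted p of 0.0623). The calls of Cyp3a11, Cyp2d26 and Cyp2b10 each ended when an array was left out. For Cyp3a11 these were null replicate 8 (adjusted p of 0.0681), control replicate 7 (0.15) and control replicate 8 (0.0888), for Cyp2b10 null replicate 7 (0.0743) and null replicate 8 (0.168), and for Cyp2d26 each of the 4, with adjusted p from 0.0743 to 0.342. Cyp2c70, Cyp2d10 and Cyp3a16 were at -0.66 ± 0.16, -0.28 ± 0.06 and 1.74 ± 0.38 without passing. Of the 19 listed electron donors and haem enzymes, which serve the P450s, 15 were tested and 0 passed in limma, with 3 at an unadjusted p under 0.05 (13.4% over all genes). Cyb5a, the cytochrome that can pass a P450 its other electron, was at 0.11 ± 0.07 and its reductase Cyb5r3 at -0.05 ± 0.08, while Alas1, which starts haem synthesis, was at 0.29 ± 0.08 and the haem-degrading Hmox1 at 0.56 ± 0.18. Urod, a haem synthesis enzyme, was at -0.38 ± 0.12 and the ferredoxin Fdx1 at 0.17 ± 0.08.

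Likeness of pattern was measured as the Euclidean distance between log2 signals, each centred on its mean over the 4 arrays. The nearest genes to Cyp2f2 were Glo1, which clears methylglyoxal, at a distance of 0.0240, Pigr at 0.0318 and the phosphatase Ppm1g at 0.0326, with log2 changes of -0.47, -0.47 and -0.46. Glo1 had signals of 892.1 and 832.1 on the null arrays, against 1208.3 and 1184.4 on the control arrays. The nearest to Cyp2e1 were Trpc4ap, Hcfc1r1 and Pttg1ip at 0.0212 to 0.0286, with changes of -0.10, -0.09 and -0.11. Those to Cyp1a2 were Pdap1, Ppp1r7 and Selenos at 0.0469 to 0.0662, with changes of 0.33, 0.28 and 0.23. Between the members the distance was 0.38 for Cyp2e1 and Cyp2f2, 0.48 for Cyp1a2 and Cyp2e1 and 0.79 for Cyp1a2 and Cyp2f2. The nearest genes were picked for the smallest distances, so larger ones between the members do not show that these are unlike. These distances rest on 4 arrays that share their scaling.

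Genes lying beside the members on the chromosome did not pass either. Cyp2f2 lies in a P450 gene cluster of chromosome 7, Cyp2e1 elsewhere on chromosome 7 and Cyp1a2 on chromosome 9 next to Cyp1a1. Of the 20 protein-coding genes nearest to each member in gene order, 10 on each side, 5 were tested for each. In limma 0 of them passed (0.399% over all genes), with 0 at an unadjusted p under 0.05 (13.4%), and so few genes make these counts uninformative. Their log2 changes ran from -0.86 to 0.07 beside Cyp2f2, -0.30 to 0.50 beside Cyp2e1 and -0.06 to 0.51 beside Cyp1a2. Some neighbours thus differed by more than the member itself. Cyp2a12, the steroid-hydroxylating neighbour of Cyp2f2, had signals of 1691.7 and 1589.1 on the null arrays, against 1508.4 and 1620 on the control arrays. Its log2 change was 0.07 ± 0.09 with overlapping arrays, and it was -0.00271 with arrays scaled to the same median.

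Markers of other cells and tissues are given because whole liver was used and Cyp2f2 is also a lung gene. Of the 9 tested hepatocyte markers 0 passed in limma, with 5 lower at an unadjusted p under 0.05 (6.93% over all genes), and their summed signal was 40315.8 and 38060.2 on the null arrays, against 43349.3 and 42773.9 on the control arrays. Their changes were positive for 3 and negative for 6, with a median of -0.20. The positive ones were Alb at 0.02 ± 0.07, Apoa1 at 0.03 ± 0.06 and Hnf4a at 0.16 ± 0.40. Among the negative ones Tdo2, of tryptophan breakdown, was at -0.38 ± 0.06 (past the threshold with quantile normalisation, adjusted p of 0.0432) and the thyroid hormone carrier Ttr at -0.63 ± 0.14. Of 14 tested Kupffer cell and macrophage markers, 2 rose (Mpeg1 and Mmp12), 0 fell and 12 did not pass. At an unadjusted p under 0.05 in limma, 6 were higher and 0 lower, beside 6.46% and 6.93% over all genes. Their summed signal was 3592.4 and 3956.1 on the null arrays, against 2856.9 and 2821 on the control arrays. Mpeg1, a pore-forming macrophage protein, had signals of 361.4 and 377.9 on the null arrays, against 150 and 134.3 on the control arrays, and the call ended without each array in turn (adjusted p from 0.07 to 0.118). Mmp12, the macrophage elastase, had 55.7 and 96.9 on the null arrays, against 5.7 and 2.5, both below the floor, on the control arrays, and that call also ended without each array in turn (0.0819 to 0.266) and with the floor at the 10th percentile (0.0682). Of the stellate cell and fibroblast list, 8 were tested, and 0 passed in limma, with 4 higher at an unadjusted p under 0.05 (6.46% over all genes), and the summed signal was 1458.5 and 1743.3 on the null arrays, against 1140.2 and 1191.4 on the control arrays. The part of these cells in the lower Cyp2f2 signal was not tested.

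Traces of other organs stood out on single null arrays. The 7 pancreatic acinar markers named on the array summed to 3031.8 on null replicate 7 and 241.1 on null replicate 8, against 274.4 and 388.3 on the control arrays. The 4 lung markers, led by the club cell secretoglobin Scgb1a1 and the surfactant gene Sftpc, summed to 29.2 on null replicate 7 and 182.8 on null replicate 8, against 32.5 and 15.8 on the control arrays. Cyp2f2 was lower than control on both null arrays, the one with the raised lung markers included. Without null replicate 7 the Cyp2f2 change was -0.52 and without null replicate 8 it was -0.44. Among the other lists, the summed signal of endothelial markers was 1173.6 and 1090.3 on the null arrays, against 998 and 1011.3 on the control arrays. Most of it came from Eng, at 762.7 and 704.9 on the null arrays, against 618.5 and 629.1 on the control arrays. Of the 6 tested endothelial markers, 2 changes were positive and 4 negative, with a median of -0.04. The summed signal of kidney markers was 54 and 143.3 on the null arrays, against 44.5 and 44.6 on the control arrays. That of lymphocyte markers was 134.9 and 144.8, against 98 and 81.2, and that of bile duct markers 45.1 and 50.7, against 24.8 and 42. As a sign of RNA quality, the ratio of 3′ to 5′ signal of the Gapdh control probe sets was 1.23 and 1.13 on the null arrays, against 1.28 and 1.28 on the control arrays, and that of beta-actin was 1.56 and 1.37, against 1.48 and 1.52.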

How the data were processed

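Liver RNA was measured on 4 arrays, 2 per genotype. Per the labels, the authors' deposited values are linear intensities that GCOS derived from matched and mismatched probes, scaled to the fluorescence of the whole chip. Which version and target were used is not given in the sources used here. Of 12488 probe sets, 66 manufacturer's controls were left out. Signals were floored at 7.1 (the 25th percentile) and converted to log2, and 7241 probe sets, those averaging over 16.8 (the 40th percentile, compared as log2), entered the test. Names came from the platform annotation, with symbols brought up to date by gene identifier in the GRCm38.p6 table, with 10833 probe sets of 1 symbol, 396 of several and 1193 of none. The brightest probe set stood for a gene.

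The test of null against control used limma 3.58.1 under R 4.3.3 (lmFit, then eBayes with trend, two-sided) and Benjamini-Hochberg adjustment over all 7241. The p-values measure only how these samples vary, possibly for technical reasons, and the number of arrays limits the precision. The steps were tested on simulated data. Promoters came from RefSeq tables, which matched all 3 genes. Named genes were the members, genes of the 8 lists past the threshold with the 4 of smallest p besides, and the 3 nearest patterns of each member. Glul, Axin2, Rgn, Cps1, Otc, Adh1, Cyb5a, Cyb5r3, Nr1i3, Ctnnb1, Cyp2a12, Cyp1a1, and the markers Alb, Apoa1, Hnf4a, Tdo2, Ttr, Mpeg1, Mmp12, Eng, Scgb1a1 and Sftpc were named outside this rule after their values were seen. The members, lists and tests were chosen with earlier results of these data known. The lists share genes. The alternatives changed the floor, filter, variance prior, scaling, block and arrays.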

Additional observations from a re-analysis of the deposited data

How the results depend on the processing

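Of 12 settings tried, Cyp1a2 and Cyp2e1 kept their direction and stayed short of the threshold in all 12, at 0.12 to 0.44 and -0.17 to -0.065 on the log2 scale. Cyp2f2 kept its direction in all 12, at -0.55 to -0.44, and passed with quantile normalisation (-0.51). Leaving out an array gave -0.52 to -0.44 for Cyp2f2. The ratio of Cyp2e1 to Cyp2f2 stood 0.33 to 0.43 higher in null liver and that of Cyp1a2 to Cyp2f2 0.60 to 0.92. The pericentral median was 0.091 with arrays scaled to the same median, a scaling that moved the median of all genes by -0.07, and 0.14 to 0.21 with an array left out. The periportal median was -0.20 to -0.036 with an array left out. The cause of these shifts was not tested.

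Of 7241 probe sets 28 passed with all arrays, and 10 to 15 with an array left out. In limma 0 passed with the floor at the 50th percentile (955 at an unadjusted p under 0.05), 0 without the filter on dim probe sets (1208) and 0 without the intensity trend (747). With the replicate block 52 passed, and Cyp2f2 was at -0.48 with an adjusted p of 0.0782. It turned no member's call and made Cyp2c29, Gstm2, Apoa4 (adjusted p of 0.0260 each) and Aldh3a2 (0.0371) pass. The labels do not say whether the shared numbers pair the arrays. Same-numbered deviations correlated at -0.03 over probe sets, which cannot settle it, since each genotype gives 1 such difference. Over 59 other named genes and the 12 settings, 641 of 708 values kept direction and side of the threshold, 49 lost a call, 13 gained one and 5 changed sign. The last were Gsta2 without null replicate 8 (-0.16) or control replicate 7 (-0.044), in a range of -0.16 to 0.35, Glul without null replicate 7 (0.059) or control replicate 7 (0.0075), in a range of -0.32 to 0.059, and Cyp2a12 with arrays scaled to the same median (-0.00271). A mean over several probe sets of a member was not run, since each has 1. The number of arrays limits the precision.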
